A study of Homo sapiens with 4 samples.

Results

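The miRNAs carried by exosomes of HCT15 spheres were compared with those of exosomes from parental HCT15 cells. HCT15 is an established human colorectal adenocarcinoma line. Spheres had grown for 3 weeks in DMEM/F12 with N2 supplements, 10 ng/ml bFGF and 10 ng/ml EGF, while the parental cells grew in complete RPMI and gave their vesicles into an exosome-depleted form of it. Vesicles of both cultures were spun down by differential ultracentrifugation, and their small RNA was sequenced with TruSeq small RNA chemistry, per the labels. Culture form and medium differ together between the libraries, so the effects of the one and the other cannot be told apart. Each side is 1 library. No ratio here can therefore be set against a spread between replicates or tested, and the 95% intervals given are exact intervals that cover counting error only. The series also holds a sphere and a parental library of a line labelled HCT29, which serve below only as values set beside those of HCT15. The growth text of the HCT29 samples names HCT15, so the labels leave some doubt over what those libraries are.

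All 2588 mature miRNAs listed in both HCT15 tables were matched by name, and 305 of them reached 10 reads in the sphere library, in the parental library or in both. These 305 miRNAs hold 99.7% of the listed miRNA reads of the sphere library and 99.6% of those of the parental library. The deposited values are RPM, reads scaled by the authors to a common total for each library on its own. Whole reads were recovered from them. The sphere library holds 461226 reads and the parental library 146648, so 1 read is worth 2.17 RPM in the sphere library and 6.82 RPM in the parental one. Listed miRNAs make up 89.9% of the sphere reads and 77.8% of the parental reads. At least 1 read was found for 712 miRNAs in sphere exosomes and 476 in parental exosomes, with 314 seen in sphere exosomes alone and 78 in parental exosomes alone. A count of 0, taken at a floor of 3 reads, allows up to 6.50 RPM in the sphere library and 20.5 RPM in the parental one.

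The read minimum acts unevenly on libraries of such different depth, since 10 reads are 21.7 RPM in the sphere library and 68.2 RPM in the parental one. Of the 305 miRNAs, 178 reached 10 reads in both libraries, 105 through the sphere library alone and 22 through the parental library alone. The 22 that entered through the parental library had to differ and were all lower in sphere exosomes, and of the 105 that entered through the sphere library 66 were higher, 37 within 2-fold and 2 lower. Just inside the minimum lie 12 miRNAs with exactly 10 reads in their higher library, such as miR-326 with 10 sphere and 5 parental reads. Just outside lie 13 with 9 reads, such as miR-374a-5p with 9 sphere and 4 parental reads.

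A miRNA is a short RNA cut from the stem of a hairpin transcript and loaded into an Argonaute protein, where it guides the repression of messenger RNAs. Targets are chosen mainly by the seed, bases 2 to 8, so miRNAs that share a seed share many targets, and each hairpin can give a mature miRNA from its 5p arm, its 3p arm or both. Exosomes are small vesicles of endosomal origin that enclose part of the releasing cell's miRNAs and pass them to other cells. Sphere culture in serum-free medium with growth factors is used to enrich cells with stem-like properties. In bulk vesicle RNA, more vesicles of one kind and more copies of a miRNA per vesicle cannot be told apart.

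Mature sequences from RefSeq (GRCh38.p14) matched 266 of the 305 miRNAs by name. The first set shows 4 seed groups whose summed level was higher in sphere exosomes, or which split, with the seed in capitals and each sequence read 5′ to 3′.
miR-146a-5p: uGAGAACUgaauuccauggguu
miR-146b-5p: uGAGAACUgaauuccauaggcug
miR-103a-3p: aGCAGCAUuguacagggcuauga
miR-107: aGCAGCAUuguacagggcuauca
miR-27a-3p: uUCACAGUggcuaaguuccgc
miR-27b-3p: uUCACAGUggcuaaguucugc
miR-100-5p: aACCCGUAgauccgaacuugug
miR-99b-5p: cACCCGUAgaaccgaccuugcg
The second set shows the miR-200 family, whose seeds come in 2 forms that behaved differently here.
miR-141-3p: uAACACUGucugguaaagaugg
miR-200a-3p: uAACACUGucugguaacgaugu
miR-200b-3p: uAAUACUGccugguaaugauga
miR-200c-3p: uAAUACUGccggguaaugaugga
miR-429: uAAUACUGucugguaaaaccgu
The third set shows abundant miRNAs that were lower in sphere exosomes, with one of another level that shares the seed of miR-92a-3p.
let-7a-5p: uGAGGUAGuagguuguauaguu
let-7b-5p: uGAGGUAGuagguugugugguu
miR-92a-3p: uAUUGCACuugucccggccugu
miR-92b-3p: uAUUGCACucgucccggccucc
miR-191-5p: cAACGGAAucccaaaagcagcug
miR-378a-3p: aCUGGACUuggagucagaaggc
The fourth set shows both arms of 2 hairpins whose more abundant arm was not the same in the 2 libraries.
miR-365a-5p: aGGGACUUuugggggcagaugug
miR-365a-3p: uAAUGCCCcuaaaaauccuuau
miR-1307-5p: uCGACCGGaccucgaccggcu
miR-1307-3p: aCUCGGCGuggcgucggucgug

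Counting positions from 1 at the 5′ end, miR-103a-3p and miR-107 differ by the single substitution G22C, and miR-27a-3p and miR-27b-3p by C19U. The change in the first pair is next to the last base, so a read that ends early could belong to either, and how the authors assigned such reads is not given in the sources used here. Within the miR-146 pair the differences are G18A and U21C. Both members of the seed AACACUG differ by A17C and G22U, whereas miR-200a-3p and miR-200b-3p differ at 4 positions, C4U, U9C, C17U and U22A, the first of which lies in the seed.

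At 2-fold or more on the log2 scale of RPM + 1, 98 of the 305 miRNAs (32.1%) were higher in sphere exosomes, 86 (28.2%) were lower and 121 lay within 2-fold. The counting interval of the ratio excluded 1 for 71 of the higher miRNAs (23.3% of all) and 84 of the lower ones (27.5% of all). The median log2 ratio was -0.12. Higher and lower miRNAs were not spread alike over abundance, but the uneven read minimum shapes that spread. Rare miRNAs could enter more easily through the sphere library, and 66 of the 98 higher miRNAs entered through it alone. Among the 136 miRNAs under 100 RPM on average, 60 were higher and 29 lower, while among the 104 from 100 to 1000 RPM 21 were higher and 41 lower. Of the 54 from 1000 to 10000 RPM 16 were higher and 12 lower, and of the 11 above 10000 RPM 1 was higher and 4 were lower. Among the 178 miRNAs with 10 reads in both libraries, 32 were higher and 62 lower. With the RPM of 10 parental reads as the minimum in either library, 56 of 229 were higher and 84 lower.

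**Figure D1:**
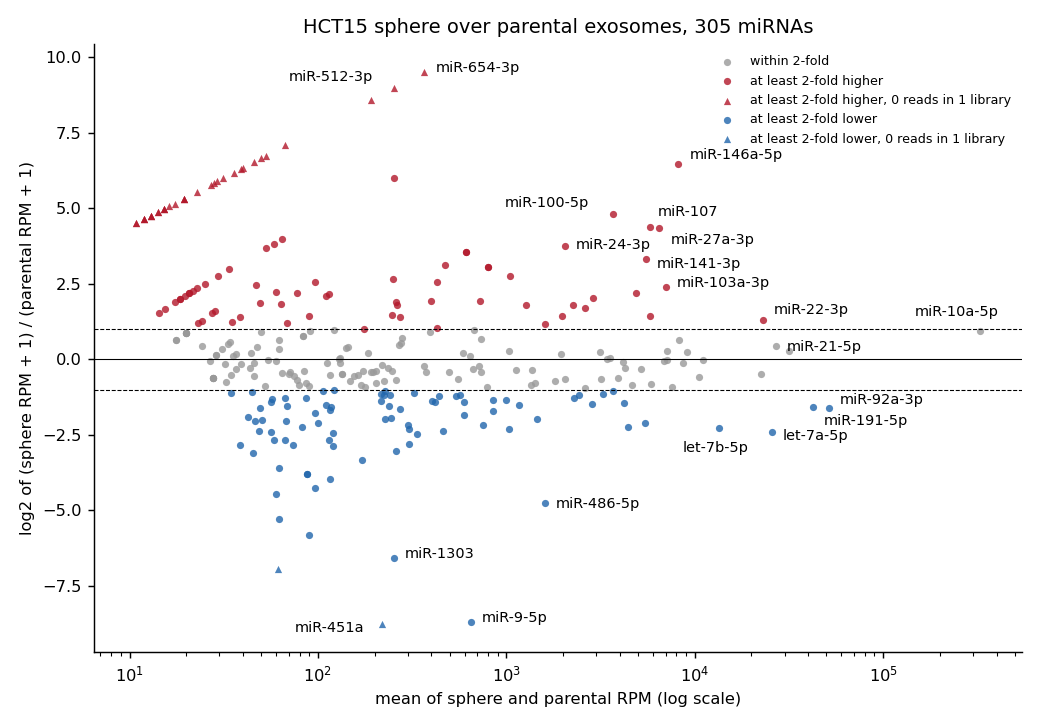
Each point is 1 of the 305 miRNAs, placed by its mean RPM over the sphere and the parental library (log scale) and by the log2 ratio of sphere over parental RPM + 1, with dashed lines at 2-fold. The triangles on a rising line at the left are miRNAs with 0 parental reads, and above 10000 RPM only miR-22-3p passes the upper line, while miR-92a-3p, miR-191-5p, let-7a-5p and let-7b-5p lie below the lower one.

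Scaling moves the split. With TMM factors from edgeR, computed on the recovered reads of the HCT15 pair, the median of all ratios shifted by 0.28 on the log2 scale and 111 miRNAs were higher and 69 lower. DESeq2 size factors shifted it by 0.35 and gave 113 higher and 65 lower, so that 63.5% of the calls were higher calls, against 53.3% with RPM as deposited. Taking shares of the listed miRNA reads shifted it the other way, by -0.21, and gave 95 higher and 97 lower. Log2 ratios near 1 or -1 are therefore read with this shift in view.

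The sphere library was more dominated by its leading miRNA. miR-10a-5p, encoded among the HOXB genes, reached 431335 RPM in sphere exosomes, against 224238 RPM in parental exosomes, a log2 ratio of 0.94 that lies just within 2-fold as deposited and at 1.23 with TMM factors. It accounted for 57.7% of all the RPM by which sphere exosomes exceeded parental ones, and the 10 largest gains together for 85.1%. In sphere exosomes 2 miRNAs, miR-10a-5p and miR-10b-5p, held 50% of the listed reads, against 4 miRNAs in parental exosomes. Further down, 37 miRNAs held 90% of the listed reads in sphere exosomes and 40 in parental exosomes. Without miR-10a-5p, listed miRNAs summed to 467225 RPM in sphere exosomes and 554246 RPM in parental exosomes.

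Several miRNAs of the top ranks of the sphere library stood far lower in the parental one. miR-146a-5p, which NF-kB induces and which represses TRAF6 and IRAK1, ranked 8th in sphere exosomes and 131st in parental exosomes, on 7479 sphere reads and 27 parental reads. miR-27a-3p ranked 9th in sphere exosomes with 12393.1 RPM and 76th in parental exosomes with 607 RPM. miR-103a-3p ranked 10th with 11833.7 RPM in sphere exosomes, against 43rd with 2236.65 RPM in parental exosomes. miR-107 ranked 11th with 11103 RPM in sphere exosomes, against 84th with 532 RPM in parental exosomes. Both miR-103a-3p and miR-107 are known to repress Dicer, the enzyme that frees miRNAs from their hairpins. miR-141-3p stood at rank 13 in sphere exosomes, against 62 in parental exosomes. miR-100-5p, a repressor of mTOR, stood at rank 22 in sphere exosomes, against 115 in parental exosomes. The only one of the 10 most abundant parental miRNAs to be 2-fold higher with RPM as deposited was miR-22-3p, with 32957.8 RPM in sphere exosomes and 13263 RPM in parental exosomes, 2.48-fold higher (2.37 to 2.61).

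The 10 largest losses made up 75.5% of the RPM by which sphere exosomes fell short of parental ones. miR-92a-3p, a member of the proliferation-linked miR-17-92 cluster, had 25740.1 RPM in sphere exosomes and 77859.9 RPM in parental exosomes and gave the largest loss in RPM. miR-191-5p had 21338.8 RPM in sphere exosomes and 63744.5 RPM in parental exosomes, 2.99-fold lower (2.90 to 3.07). let-7b-5p, which like other let-7 miRNAs represses growth genes such as RAS, HMGA2 and LIN28, had 4555 RPM in sphere exosomes and 22202.8 RPM in parental exosomes, 4.87-fold lower (4.61 to 5.15). Its rank was 28 in sphere exosomes and 8 in parental exosomes. miR-378a-3p, encoded in an intron of the metabolic coactivator gene PPARGC1B, was 4.72-fold lower (4.29 to 5.19), at 1552 RPM in sphere exosomes against 7324 RPM in parental exosomes. miR-30d-5p had 2036 RPM in sphere exosomes and 8817 RPM in parental exosomes, 4.33-fold lower (3.98 to 4.72).

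Among the rarer miRNAs lower in sphere exosomes, miR-1303 had 2 sphere reads and 74 parental reads, a 116-fold lower RPM (31.1 to 979). miR-877-5p, a mirtron from the ABCF1 gene, was 5.62-fold lower (3.89 to 8.21) with 47 sphere reads and 84 parental reads. miR-149-5p was 4.95-fold lower (3.39 to 7.30) with 47 sphere reads and 74 parental reads. let-7b-3p, the other arm of the let-7b hairpin, was 8.23-fold lower (5.17 to 13.5) with 26 sphere reads and 68 parental reads. Both arms of let-7b were thus lower in the sphere library.

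At the opposite extreme, 33 of the 305 miRNAs had sphere reads and 0 parental reads. Their sphere counts ran from 10 to 339 with a median of 18, and 15 of the 33 were at least 2-fold higher when 3 parental reads are assumed. For the others a floor of 3 parental reads gives no bound of 2-fold. miR-125b-1-3p, the other arm of a miR-125b hairpin, had 231 sphere reads and 1 parental read, a ratio of 73.4 (13.1 to 2.91e+03). Among the 305, only 2 miRNAs had 0 sphere reads, miR-451a with 64 parental reads and miR-124-3p with 18.

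The 266 miRNAs with a matched sequence carried 204 different seeds, and 38 seeds had 2 or more of them, 100 miRNAs in all. The other 39 miRNAs are in no seed group, so groups and their sums cover matched members only. In 12 of these 38 groups every matched member was higher, in 2 every one was lower, in 8 every one lay within 2-fold, and 3 held both higher and lower members. The count of 12 includes 1 group that is a single sequence under 2 names (miR-199a-3p and miR-199b-3p) and 3 with no member at 10 reads in both libraries, which had little room to come out otherwise. In 5 of the 12, at least 2 different sequences reached 10 reads in both libraries. One of the 8 groups within 2-fold is likewise a single sequence, that of miR-365a-3p and miR-365b-3p. Summing the members removes the doubt over which of 2 near-identical miRNAs a read belongs to. The seed GCAGCAU of miR-103a-3p and miR-107 summed to 22936.7 RPM in sphere exosomes and 2769 RPM in parental exosomes, 8.28-fold higher (7.5 to 9.17). Within that sum the sphere library held 5458 reads of miR-103a-3p and 5121 of miR-107, and the parental library 328 and 78. The seed UCACAGU of miR-27a-3p and miR-27b-3p was 5.63-fold higher (5.17 to 6.15), at 20818 RPM in sphere exosomes against 3696 RPM in parental exosomes. GAGAACU, the seed of the miR-146 pair, reached 18034.5 RPM in sphere exosomes and 450.05 RPM in parental exosomes, 40.1-fold higher (31.5 to 51.9).

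Another seed on which both members were higher is UGACCUA of the intestinal miR-192-5p and miR-215-5p, 4.09-fold (3.49 to 4.81). That ratio rests mainly on miR-192-5p, with 2127 sphere reads and 165 parental reads. miR-215-5p, with 46 sphere reads and 4 parental reads, had entered through the sphere library alone. miR-320b, miR-320c and miR-320d summed to 3.84-fold higher (3.17 to 4.68), but miR-320a, the most abundant of that family and without a matched sequence, had 3096 RPM in sphere exosomes and 4767 RPM in parental exosomes. All 4 together were 1.10-fold higher (1.02 to 1.19). The seed AGCACCA of miR-29a-3p and miR-29b-3p, repressors of collagens and of DNA methyltransferases, summed to 2.30-fold higher (1.94 to 2.74). With the reads taken as shares of all listed miRNAs, only one member of the miR-29 pair stayed past 2-fold. That was miR-29b-3p, which had entered through the sphere library alone, with 61 sphere reads and 7 parental reads. The seed GGCAGUG of miR-34a-5p, miR-449a and miR-449b-5p, a set tied to p53 and to ciliated cells, was 3.32-fold higher (2.14 to 5.41), at 499 RPM in sphere exosomes against 150.02 RPM in parental exosomes. With shares of listed reads miR-449b-5p came within 2-fold. miR-34a-5p, with 4 parental reads, and miR-449a, with 1, had entered through the sphere library alone.

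In some groups 1 member differed while its relatives did not. miR-100-5p was 28.2-fold higher, yet miR-99b-5p, with the same seed ACCCGUA and 10878 RPM in sphere exosomes against 11136 RPM in parental exosomes, had a ratio of parental to sphere RPM of 1.02 (0.968 to 1.08). The summed seed was 1.58-fold higher (1.5 to 1.67). miR-92a-3p was 3.02-fold lower, while miR-92b-3p had 9848 RPM in sphere exosomes and 8394 RPM in parental exosomes, a ratio of 1.17 (1.10 to 1.25), and their seed AUUGCAC, with miR-25-3p, summed to 2.37-fold lower (2.32 to 2.42). In the let-7 seed GAGGUAG, let-7a-5p, let-7b-5p and miR-98-5p were lower, and the other 6 members lay within 2-fold. let-7i-5p had 3606 RPM in sphere exosomes and 3464 RPM in parental exosomes, and let-7g-5p had 3430.0 RPM in sphere exosomes and 3389 RPM in parental exosomes. The summed let-7 seed was 3.16-fold lower (3.08 to 3.24), a sum led by let-7a-5p and let-7b-5p. With shares of the listed reads 6 of the 9 let-7 guide strands were past 2-fold, and with DESeq2 factors 2.

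**Figure D2:**
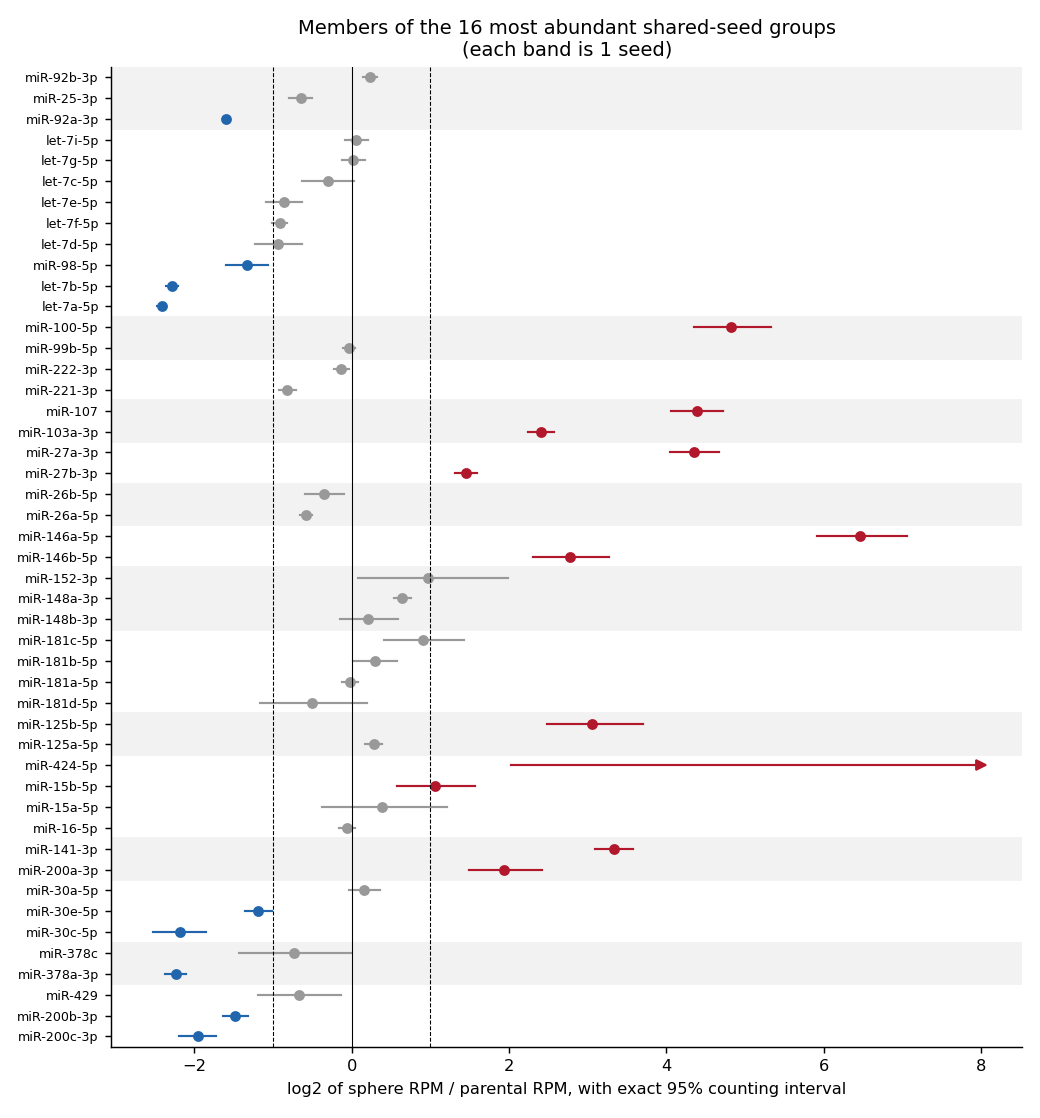
Points are log2 ratios of sphere over parental RPM with exact 95% counting intervals, for members of the 16 most abundant seeds with 2 or more matched members, each band 1 seed. Red is at least 2-fold higher, blue at least 2-fold lower and grey within 2-fold, and the arrow marks miR-424-5p, with 0 parental reads, drawn from its lower limit.

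The miR-200 family represses ZEB1 and ZEB2 and so maintains the epithelial state. Its 2 seeds, which differ at base 4 of the miRNA, went in opposite directions. AACACUG, carried by miR-141-3p and miR-200a-3p, summed to 11187.6 RPM in sphere exosomes and 1296 RPM in parental exosomes, 8.63-fold higher (7.47 to 10.03). AAUACUG, carried by miR-200b-3p, miR-200c-3p and miR-429, summed to 2298 RPM in sphere exosomes and 6819 RPM in parental exosomes, 2.97-fold lower (2.72 to 3.24). miR-200b-3p had 1500.35 RPM in sphere exosomes and 4180.08 RPM in parental exosomes, 2.79-fold lower (2.49 to 3.11). miR-200c-3p had 596 RPM in sphere exosomes and 2318 RPM in parental exosomes, 3.89-fold lower (3.31 to 4.58). miR-429, within 2-fold, had 202 RPM in sphere exosomes and 320.5 RPM in parental exosomes. The order of the seeds was therefore turned round, with AACACUG the more abundant in sphere exosomes and AAUACUG in parental exosomes. Position in the genome did not follow this split. The hairpins of miR-200c (6963699 to 6963766) and miR-141 (6964097 to 6964191) lie beside each other on chromosome 12 of GRCh38.p14, and the log2 ratio was -1.96 for miR-200c-3p and 3.33 for miR-141-3p. The calls of these 4 miR-200 members past 2-fold were the same with TMM and DESeq2 factors.

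For 116 hairpins both arms are listed and had together at least 10 reads in each library. The less abundant arm, by reads summed over both libraries, took a median of 1.31% of a hairpin's reads in sphere exosomes and 2.21% in parental exosomes. Its share was lower in sphere exosomes for 59 hairpins, higher for 44 and equal for 13. The exact intervals of the share did not overlap for 27 hairpins, with the minor share lower in sphere exosomes for 21 and higher for 6. These intervals concern 2 libraries, and the ratio of arms within a library does not depend on how the libraries were scaled. The deeper sphere library weighs more in which arm is taken as minor. For miR-365a, miR-151a and miR-423, among the 21 with a lower minor share, that arm was the more abundant one in parental exosomes.

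The most different hairpin was miR-365a, whose 5p arm took 2% of the reads in sphere exosomes (0.0506 to 10.6) and 74.3% in parental exosomes (56.7 to 87.5). The sphere library held 1 read of miR-365a-5p and 49 of miR-365a-3p, and the parental library held 26 and 9 in that order. Its 3p arm is identical to that of miR-365b, so the 3p reads may come from either hairpin. miR-1307, whose hairpin lies in an exon of ATP5MD, gave 60.8% of its reads from the 5p arm in sphere exosomes (55.1 to 66.2), against 15.9% in parental exosomes (9.54 to 24.2). miR-361 stood at 95.4% in sphere exosomes (91.2 to 98.0) and 52.8% in parental exosomes (35.5 to 69.6). The 5p arm of miR-151a, the better covered of these, took 59.9% in sphere exosomes (58.0 to 61.8) and 31.6% in parental exosomes (29.1 to 34.1), since miR-151a-3p was 2.73-fold lower (2.49 to 2.98) while miR-151a-5p had 3393 RPM in sphere exosomes and 2857 RPM in parental exosomes. The more abundant arm was another one in the sphere library than in the parental one for 4 hairpins, miR-365a, miR-1307, miR-151a and miR-423.

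In several higher miRNAs only the guide arm was higher. miR-27a-3p had 5716 sphere reads and 89 parental reads, while miR-27a-5p had 12 sphere reads and 16 parental reads and was 4.19-fold lower (1.86 to 9.71). The 5p share of that hairpin was 0.209% in sphere exosomes (0.108 to 0.366) and 15.2% in parental exosomes (8.97 to 23.6). The minor 5p arm of miR-141 took 1.24% in sphere exosomes (0.941 to 1.60) and 15.6% in parental exosomes (10.5 to 21.9). For miR-200a the 5p arm took 3.11% in sphere exosomes (1.82 to 4.94) and 35.3% in parental exosomes (24.1 to 47.8). Hypoxia-induced miR-210 showed the same form, although its 3p arm lay within 2-fold, with 666 RPM in sphere exosomes and 621 RPM in parental exosomes. miR-210-5p had 1 sphere read and 18 parental reads, a 56.6-fold lower RPM (8.94 to 2.36e+03). In miR-21, widely raised in tumours, it was the other way about. The 5p share was 88.7% in sphere exosomes (88.2 to 89.1) and 94.9% in parental exosomes (94.1 to 95.6), and miR-21-3p was 3.27-fold higher (2.80 to 3.83), on 1849 sphere reads and 180 parental reads. miR-21-5p itself was 1.38-fold higher (1.32 to 1.43), at 31318.7 RPM in sphere exosomes against 22775.6 RPM in parental exosomes.

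Counted over all members with an arm in their name, 48 of 132 miRNAs from 3p arms (36.4%) were higher and 36 (27.3%) lower, with a median log2 ratio of 0.16. From 5p arms 35 of 133 (26.3%) were higher and 43 (32.3%) lower, with a median of -0.40. Over all 305 miRNAs 32.1% were higher and 28.2% lower, with a median of -0.12, and the shares by arm lie near these. Entry through the sphere library alone was not separated by arm.

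**Figure D3:**
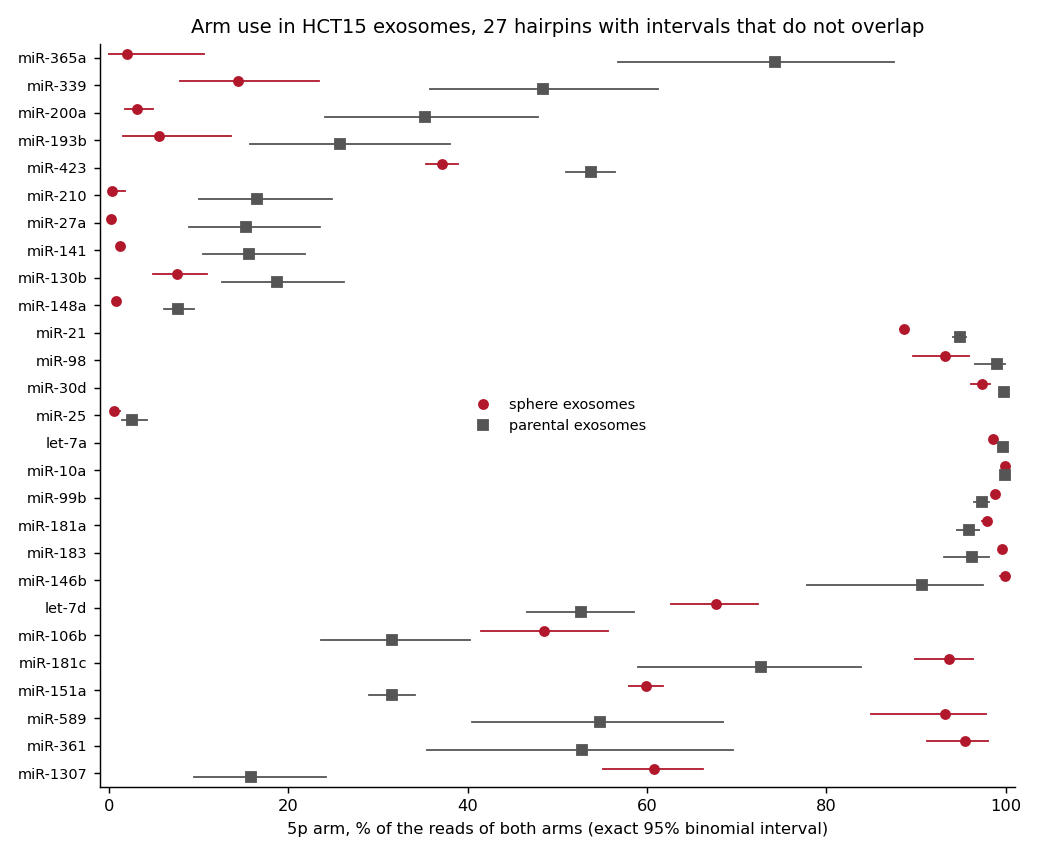
For the 27 hairpins whose exact 95% intervals do not overlap, the share of 5p reads among the reads of both arms is shown in percent for sphere exosomes (red circles) and parental exosomes (grey squares). miR-365a, miR-200a, miR-27a and miR-141 lie near 0% in sphere exosomes and higher in parental exosomes, while miR-361 and miR-589 lie near 100% in sphere exosomes and near 50% in parental exosomes.

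Neighbouring hairpins were grouped where they lie within 10 kb of each other on 1 strand. A miRNA encoded by several hairpins is counted in each place. The counts stand beside 32.1% higher and 28.2% lower over all 305 miRNAs. Of the 105 miRNAs that entered through the sphere library alone, 66 were higher. In the part of the imprinted DLK1-DIO3 region on chromosome 14 that runs from miR-379 to miR-410, 13 of 15 members were higher, and the other 2, miR-411-5p and miR-410-3p, lay within 2-fold. Of the 15, 12 reached 10 reads in the sphere library alone and 8 had 0 parental reads, so most of them had little room to be called otherwise. miR-654-3p led them with 339 sphere reads and 0 parental reads. In the neighbouring part of the same region, from miR-493 to miR-136, 4 of 6 members were called higher, and 4 had entered through the sphere library alone. The 2 with 10 reads in both libraries, miR-127-3p and miR-136-3p, lay within 2-fold. On the chromosome 19 cluster expressed in placenta and in pluripotent cells, 12 of 13 were higher, and all 13 had entered through the sphere library alone, 11 of them with 0 parental reads. Adjacent to it, the miR-371 to miR-373 cluster, another group of pluripotent cells, had 0 of 4 members higher and 1 lower. There miR-372-3p had 401 RPM in sphere exosomes and 1302 RPM in parental exosomes, 3.25-fold lower (2.64 to 4), and miR-371a-5p had 3341 RPM in sphere exosomes and 5994 RPM in parental exosomes.

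Read counts in these groups differ. By family list, 14 of 15 chromosome 19 members were higher, 8 of them with a counting interval that excludes 1. In the DLK1-DIO3 list 20 of 24 were higher, 11 of them with such an interval. The 3 members of the chromosome 14 part with 10 reads in both libraries were miR-411-5p, miR-409-3p and miR-410-3p, and among them miR-409-3p alone was past 2-fold, 2.63-fold higher (1.69 to 4.30). miR-371a-5p had 1541 sphere reads and 879 parental reads, and miR-373-3p had 634 sphere reads and 330 parental reads. miR-516b-5p of the chromosome 19 cluster had 62 sphere reads and 0 parental reads. Its RPM was at least 6.57-fold higher when 3 parental reads are assumed.

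Smaller groups in which all members were higher include miR-214 with miR-199a on chromosome 1, within the DNM3OS transcript, with 4 of 4, and miR-424 with miR-450b on chromosome X, with 3 of 3. In both, members entered through the sphere library alone, 3 of the 4 and 3 of the 3. miR-424-5p, a cell cycle inhibitor with the seed of miR-16, had 49 sphere reads and 0 parental reads. Its RPM was at least 5.19-fold higher when 3 parental reads are assumed. miR-424-3p had 51 sphere reads and 1 parental read, a ratio of 16.2 (2.78 to 653). By contrast the abundant miR-16-5p had 6752 RPM in sphere exosomes and 7051 RPM in parental exosomes. On the lower side, miR-30e with miR-30c, on chromosome 1 within the NFYC gene, had 4 of 4 members lower, miR-30c-5p by 4.55-fold (3.61 to 5.77) and miR-30e-5p by 2.28-fold (2.03 to 2.56), though miR-30e-5p came within 2-fold with TMM factors (log2 ratio -0.90). The miR-17-92 cluster on chromosome 13 had 6 of 9 lower and 0 higher. With its paralogs counted in, 10 of 15 were lower with RPM as deposited, 7 with TMM factors and 6 with DESeq2 factors. The pair of miR-191 and miR-425 on chromosome 3 had 2 of 3 lower.

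Members of 1 cluster did not always share a direction. In the miR-23a, miR-27a and miR-24-2 cluster on chromosome 19 (miR-27a from 13836440 to 13836517, in an exon of AC020916.1 in GENCODE release 29), the 3 main arms were higher and the 2 others, miR-27a-5p and miR-24-2-5p, lower. miR-24-3p, which has a further hairpin on chromosome 9, was 13.6-fold higher (9.97 to 19). miR-23b-3p, of the paralogous cluster on chromosome 9, had 98 sphere reads and 38 parental reads, within 2-fold. Hairpins of the miR-103 and miR-107 seed lie apart, each in an intron of a pantothenate kinase gene. MIR107 is in PANK1 on chromosome 10 (89592747 to 89592827), MIR103A1 in PANK3 on chromosome 5 (168560896 to 168560973) and MIR103A2 in PANK2 on chromosome 20 (3917494 to 3917571). MIR146A overlaps an exon of MIR3142HG on chromosome 5 (160485352 to 160485450).

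**Figure D4:**
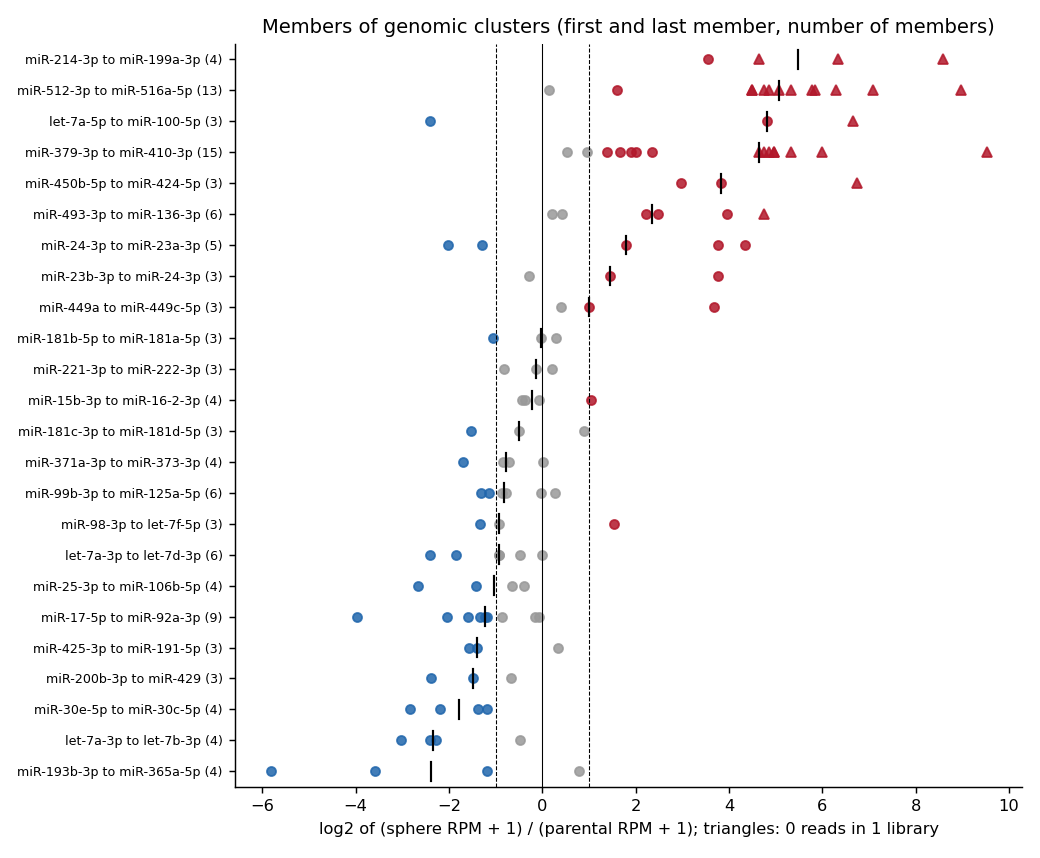
Each row is a genomic cluster of 3 or more members, named by its first and last member with the number of members, and each point is the log2 ratio of sphere over parental RPM + 1 of 1 miRNA, with a black tick at the median and dashed lines at 2-fold. Rows from miR-214-3p to miR-449a have medians at or above 1, and those from miR-25-3p down have medians below -1.

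Family lists are given by their counts, beside the 32.1% higher, 28.2% lower and median log2 ratio of -0.12 over all 305. With few members a list, counts near those shares say nothing particular of it. The miR-34 and miR-449 list had 4 of 4 members higher, 3 with an interval that excludes 1, and shares of listed reads left 3 of 4 higher. Of these 4, miR-449b-5p, at a log2 ratio of 1.01, was the one with 10 reads in both libraries. The list leaves out miR-449c-5p, which lay within 2-fold at a log2 ratio of 0.40, with 25 sphere reads and 6 parental reads. In the miR-29 list 2 of 2 were higher, though miR-29b-3p had entered through the sphere library alone. Of 6 miR-15 and miR-16 relatives 2 were higher and 0 lower, and their summed ratio was 1.01 (0.949 to 1.09). All 4 entries of miR-221 and miR-222, which repress the cell cycle inhibitor p27, lay within 2-fold, with a median log2 ratio of -0.28 as deposited and 0.01 with TMM factors. The miR-181 list had 0 of 6 higher and 1 lower (1 higher and 0 lower with TMM factors), with a summed ratio of 1.01 (0.948 to 1.07) and a median of -0.26 that became 0.02 with TMM factors. The list of miR-148 and miR-152, repressors of DNA methyltransferases, had 0 of 5 higher (1 with TMM factors) and 1 lower, the minor arm miR-148a-5p, although its summed RPM was 1.43-fold higher (1.34 to 1.53).

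The miR-130 and miR-301 list had 3 of 6 lower (2 with TMM factors) and 1 higher. In the miR-378 list 1 of 3 was lower and 0 higher (1 higher with TMM factors), with a summed RPM 4.35-fold lower, carried by miR-378a-3p. miR-191 and miR-425 had 3 of 4 lower with RPM as deposited and 2 with TMM factors. The colorectal tumour list had 2 of 8 higher and 2 lower, and its median of -0.21 became 0.08 with TMM factors. There miR-31-5p, a miRNA raised in colorectal cancer, had 3818 RPM in sphere exosomes and 4678 RPM in parental exosomes. Of 8 measured entries that overlap other abundant RNAs 1 was higher and 3 were lower with RPM as deposited, and 3 were higher and 3 lower with TMM and with DESeq2 factors. miR-1246, one of them, was 2.88-fold lower (2.42 to 3.43). miR-7641, which overlaps ribosomal RNA, had 124 RPM in sphere exosomes and 232 RPM in parental exosomes.

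Markers of colon epithelium were present in both libraries. All 9 markers (miR-192-5p, miR-194-5p, miR-215-5p, miR-375 and 5 members of the miR-200 family) had reads in each, summing to 22915 RPM in sphere exosomes and 15042.8 RPM in parental exosomes, 1.52-fold higher (1.45 to 1.60). The 9 did not move together. miR-141-3p gave the largest gain among them, with 10040.6 RPM in sphere exosomes and 995.58 RPM in parental exosomes. RPM was also higher in sphere exosomes for miR-192-5p, miR-194-5p, miR-215-5p and miR-200a-3p, and lower for miR-375, miR-200b-3p, miR-200c-3p and miR-429. Markers of other cell types were also found. Those of fibroblasts and smooth muscle summed to 4557 RPM in sphere exosomes and 1200.16 RPM in parental exosomes, 3.80-fold higher (3.25 to 4.45), with miR-199a-5p and miR-214-3p at 0 in the parental library. Most of both sums was miR-143-3p, with 1331 sphere reads and 158 parental reads. miR-145-5p had 4 sphere reads and 1 parental read. Blood markers summed to 152 RPM in sphere exosomes and 4023 RPM in parental exosomes, with miR-451a, miR-144-3p and miR-223-3p at 0 in the sphere library and miR-144-3p at 0 in the parental one. Endothelial miR-126, both arms summed, had 158 RPM in sphere exosomes and 934 RPM in parental exosomes.

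The neural markers miR-9-5p, miR-9-3p and miR-124-3p summed to 4.34 RPM in sphere exosomes and 1446 RPM in parental exosomes. Nearly all of the parental sum was miR-9-5p, with 1 sphere read and 191 parental reads. The wider neural list summed to 490 RPM in sphere exosomes and 2366 RPM in parental exosomes, with 3 of 5 measured members lower and 2 within 2-fold. Muscle markers miR-1-3p, miR-133a-3p and miR-206 were at 0 in both libraries, as was the liver and serum marker miR-122-5p. The wider list of serum carry-over miRNAs was not at 0. Its 4 measured members were all lower in sphere exosomes with RPM as deposited, and 3 with TMM factors. The list summed to 3109 RPM in sphere exosomes and 10262.7 RPM in parental exosomes, 3.30-fold lower (3.07 to 3.55). The part that RNA of other cells or of the medium had in the ratios above was not tested. Depth and the share of reads outside listed miRNAs (10.1% in sphere and 22.2% in parental exosomes) also differed along with culture, and their part was not tested either.

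Mature sequences were also compared between classes, counting identical sequences once, 264 sequences in all. The 73 lower sequences had a median GC content of 54.5%, against 45.5% for the 106 within 2-fold and 47.6% for the 85 higher ones. Over all 2264 listed miRNAs with a sequence it was 52.2%. A final G closed 32.9% of the lower sequences, 24.5% of those within 2-fold and 11.8% of the higher ones, and a final U 27.4%, 38.7% and 44.7% in the same order. Weighted by reads, GC content came to 45.2% in sphere exosomes and 46.5% in parental exosomes, and without miR-10a-5p to 47.1% in sphere exosomes and 48.0% in parental exosomes. Median length was 22 in every class.

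The short motifs GGAG and CCCU have been linked to the sorting of miRNAs into exosomes in other cells. GGAG, read on the strand of the miRNA, occurred in 5 of 85 higher sequences (5.88%), 6 of 106 within 2-fold (5.66%) and 7 of 73 lower ones (9.59%). CCCU occurred in 8 higher (9.41%), 9 within (8.49%) and 7 lower sequences (9.59%). Over all 2264 listed sequences the shares were 15.8% for GGAG and 12.1% for CCCU. Both libraries are vesicle RNA, so these counts compare kinds of exosome and not exosomes with cells.

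The same contrast in the line labelled HCT29 has its own 224 miRNAs, 52 of them higher (23.2%) and 81 lower (36.2%), and 188 miRNAs were measured in both lines. The 38 miRNAs higher in HCT15 sphere exosomes and measured in HCT29 divided there into 4 higher, 16 within 2-fold and 18 lower. The 60 lower ones divided into 12 higher, 23 within 2-fold and 25 lower. A further 117 of the HCT15 miRNAs did not reach 10 reads in HCT29, 60 of them higher and 26 lower in HCT15, and 53 had 0 reads in both HCT29 libraries. Among these 53 were miR-654-3p and miR-9-5p.

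Levels in HCT29 differed for the leading miRNAs. miR-146a-5p had 132 RPM in HCT29 sphere exosomes and 45.2 RPM in HCT29 parental exosomes, far under its 16215.5 RPM in HCT15 sphere exosomes. miR-107 had 522 RPM in HCT29 sphere exosomes and 1184 RPM in HCT29 parental exosomes. miR-141-3p had 2675 RPM in HCT29 sphere exosomes and 8449 RPM in HCT29 parental exosomes. Of these 3, only miR-146a-5p was higher in the spheres of both lines. In HCT29 it rested on 70 sphere reads and 5 parental reads, 2.92-fold higher (1.19 to 9.27). let-7a-5p had 8917 RPM in HCT29 sphere exosomes and 11331 RPM in HCT29 parental exosomes, close to the 8115 RPM of HCT15 sphere exosomes and below the 43321.4 RPM of HCT15 parental exosomes. miR-486-5p of red blood cells was lower in the spheres of both, with 322 RPM in HCT29 sphere exosomes and 1437 RPM in HCT29 parental exosomes.

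**Figure D5:**
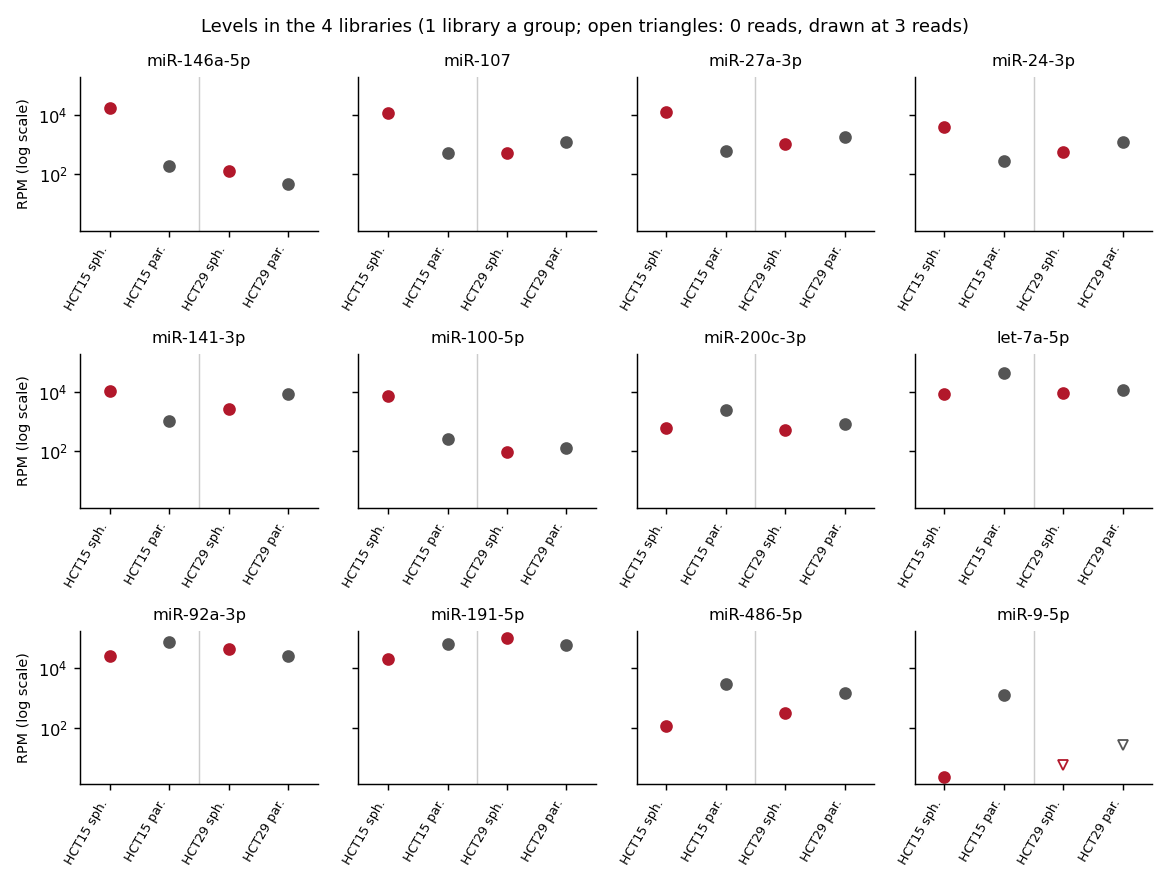
RPM on a log scale of 12 miRNAs in HCT15 sphere, HCT15 parental, HCT29 sphere and HCT29 parental exosomes (red for spheres, grey for parental cells, 1 library each, open triangles for 0 reads drawn at 3 reads). miR-107, miR-24-3p and miR-141-3p are higher in spheres of HCT15 and lower in spheres of HCT29, and miR-9-5p has reads in the HCT15 libraries alone.

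Taking the lines as replicates of the culture effect, limma on log2(RPM + 1), with line in the model, tested 222 miRNAs with 1 residual degree of freedom. It called 0 of them at an adjusted p of 0.05, with 12 at an unadjusted p under 0.05 and a smallest adjusted p of 0.488. edgeR's quasi-likelihood test on the recovered reads also called 0, with 3 at an unadjusted p under 0.05 and a smallest adjusted p of 0.998. For miR-146a-5p the limma log2 ratio was 3.99 with an adjusted p of 0.488, and it was higher in the spheres of 2 of 2 lines.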

How the data were processed

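Small RNA of exosomes from HCT15 spheres and parental HCT15 cells was measured in 1 library each, and HCT29 libraries were read alike. The deposited values are RPM of 2588 mature miRNAs a library, as the headers of the HCT15 files state, while those of HCT29 name no unit. The submitters' processing notes name hg19. The aligner is not given in the sources used here, nor is the annotation release. Dividing by the smallest step of each library gave whole reads for 100% of nonzero values within 0.1 read. These reads served for intervals, floors and the count test, in which edgeR called 0 of 222 miRNAs.

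A log2 ratio of sphere over parental RPM + 1 was called at 2-fold for miRNAs with at least 10 reads in either library. Folds were taken without the added 1 and carry exact conditional binomial (Clopper-Pearson) 95% intervals. Shares have exact binomial intervals. Against 0 reads, a fold marked at least uses 3 reads for that library. Reads without molecular identifiers are not independent molecules, so intervals and floors cover counting error only. RefSeq (GRCh38.p14) gave mature sequences and hairpin positions, and GENCODE release 29 host genes.

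Named miRNAs follow a rule that took the 10 highest and 10 lowest ratios at 50 or more reads, the 10 most abundant of each library, the 10 largest gains and losses in RPM, the 4 most abundant members of each list, the members of the 8 most abundant shared seeds, the 6 hairpins with the largest arm difference, and miR-146a-5p and miR-21-5p, 140 in all. Other miRNAs named as arms, neighbours or relatives of these were chosen after their values were seen. The members and the miRNA lists were chosen with earlier results of these data known. Alternatives were other scalings, pseudocounts, read minimums and call rules. The scripts were tested on simulated data. Python 3.11.15, scipy 1.17.1, R 4.3.3, edgeR 4.0.16, limma 3.58.1 and DESeq2 1.42.0 were used.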

Additional observations from a re-analysis of the deposited data

Results flagged for a closer look

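Among the 140 named miRNAs, 17 stood on opposite sides of the 2-fold line in HCT15 and in HCT29. With 1 library a group, the difference between the lines was not tested, and the differences below are of log2 ratios of RPM + 1, HCT15 minus HCT29. In HCT15 spheres higher, but lower in those of HCT29, were miR-29b-3p (8.96), miR-199a-3p (7.76) and miR-199b-3p (7.76), whose reads are identical. For miR-29b-3p the value depends on the added 1 RPM, because the HCT29 sphere library had 0 reads and the HCT29 parental library 20. The 2 seed relatives miR-107 (5.56) and miR-103a-3p (3.74) were among them, as were miR-200a-3p (5.50) and miR-141-3p (4.99), the pair with the seed AACACUG. From the miR-23a cluster came miR-24-3p (4.86) and miR-23a-3p (3.93), and from the cluster of miR-183 came miR-96-5p (4.09) and miR-183-5p (3.41). miR-143-3p differed by 4.23, miR-29a-3p by 3.46 and miR-15b-5p by 2.33.

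The reverse, lower in HCT15 but higher in HCT29 spheres, was seen for miR-423-5p (-2.18), let-7b-3p (-5.22) and miR-191-3p (-6.36). For let-7b-3p and miR-191-3p the HCT29 counting interval included 1, and miR-191-3p had 0 reads in the HCT29 parental library.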

How the results depend on the processing

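The scalings shifted the median log2 ratio by 0.35 at most, and a pseudocount is added to both sides alike. Directions of named miRNAs past 2-fold had no room to turn round, so that they held is no check on them. Counts of calls moved with the read minimum. Higher miRNAs numbered 98 of 305, and 44 of 163 at 50 reads in either library, 390 of 790 at 1 read, 32 of 178 at 10 reads in both, 56 of 229 at the RPM of 10 parental reads and 58 of 260 without the lists of the fibroblast, DLK1-DIO3 and chromosome 19 miRNAs. Lower miRNAs numbered 86, and 46 at 50 reads, 227 at 1 read and 41 at 4-fold. They numbered 62 at 10 reads in both libraries and 84 at the RPM of 10 parental reads, and so outnumbered the higher ones there. The other alternatives, scalings included, left the counts within 1.5 times of 98 higher and 86 lower. Sizes of ratios were less steady. With TMM factors 50 of the 140 named ratios left their counting interval, and with DESeq2 factors 60. The summed ratio left its interval for 7 of the 8 most abundant shared seeds with either set of factors, and likewise with shares of listed reads. The intervals thus do not cover the choice of scaling. With TMM factors 40 of 40 named higher and 36 of 43 named lower miRNAs kept their call and 8 within 2-fold became higher. No paired analysis was possible because within HCT15 each group holds 1 library, and across the lines only the limma and edgeR fits with line in the model pair sphere with parental. Depth limits the parental side most, where 1 read is 6.82 RPM, so that 15 of the 33 miRNAs without parental reads reach a bound of 2-fold.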
